A study of Mus musculus with 6 samples.

Results

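The genes that take a muscle precursor out of the cell cycle were followed by symbol in a table of 20950 entries from C2C12 cells, and all 8 were found. They were the CDK inhibitors Cdkn1a, Cdkn1b, Cdkn1c and Cdkn2c, the D cyclins Ccnd1, Ccnd2 and Ccnd3, and the retinoblastoma gene Rb1. All 8 had a mean of at least 1 FPKM over the 6 libraries and were thus among the 10731 genes tested.

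C2C12 is a mouse myoblast line whose cells fuse into myotubes when serum is withdrawn, and all libraries came from this line, for which the labels name no genetic change. Growing cells in 10% FBS (fetal bovine serum) gave 1 library, cells moved to 2% HS (horse serum) gave 1, and cells in 2% HS + exosome gave 1. Cells moved to 0.2% FBS gave 1 library, and cells in 0.2% FBS + exosome gave 2 (replicates 1 and 2). The time of harvest is not given in the sources used here for the sequenced cells. Exosomes, small vesicles precipitated from FBS with a commercial kit, were added in the quantity present in 10% FBS, and such a precipitate can carry other serum material. The study asked whether these vesicles change myogenic differentiation, and the sources used here do not say whether the replicates were separate cultures. The p-values below therefore measure only the spread between these libraries, pooled over all genes tested, and that spread may be technical.

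In dividing cells, D cyclins bind CDK4 and CDK6, and the resulting kinases phosphorylate Rb, which then releases the E2F factors that drive the genes of DNA replication. CDK inhibitors of the Cip/Kip family (p21, p27 and p57, from Cdkn1a, Cdkn1b and Cdkn1c) and of the INK4 family (p18, from Cdkn2c) oppose these kinases. In muscle precursors MyoD raises p21 and Rb, and cyclin D3 is the D cyclin that stays in myotubes.

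FPKM counts the fragments of a gene per kilobase of transcript and in proportion to sequencing depth, so that levels can be set side by side between genes. Changes are differences of log2(FPKM + 1), which understate the change of low genes. Estimated from the steps between low values, the depths lay between 33700000 and 39400000 reads, and no interval was computed from them. The myogenic genes Myod1 (83.7 to 110.5 FPKM) and Des (543 to 1061 FPKM) were present in all 6 libraries. The 8 markers of leukocytes, endothelium, epithelium, fat and erythroid cells found in the table summed to between 1.34 and 2.31 FPKM, most of it the leukocyte marker Cd68. The 10% FBS library, labelled as growing, already held 512 FPKM of Myog, a regulator of differentiation.

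Cdkn1a, which encodes p21, was by far the most abundant of the inhibitors, and 98.9% of the genes tested had a lower mean level. Its level was 536 FPKM in 10% FBS, 1001 in 2% HS, 927 in 2% HS + exosome, 1009 in 0.2% FBS, and 486 and 444 in the replicates of 0.2% FBS + exosome. The 3 libraries of 2% HS, 2% HS + exosome and 0.2% FBS were high, and neighbours among them lay no further apart than the replicates did from each other (0.13 on the log2 scale). The 10% FBS library and both libraries of 0.2% FBS + exosome were lower than these 3. The share of all genes tested with the same split was not computed. Cdkn1a lies at chr17:29090976-29100727 (mm10, plus strand).

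Cdkn1c, which encodes p57 and is expressed from the maternal allele, was the least abundant member and the most variable, with a ratio of 10.6 between its highest and lowest library. It stood at 0.539 FPKM in 10% FBS, 1.24 in 2% HS, 2.53 in 2% HS + exosome, 2.94 in 0.2% FBS, and 0.582 and 0.277 in 0.2% FBS + exosome. Both exosome libraries of 0.2% FBS lay near the growing library, and the 0.2% FBS and 2% HS + exosome libraries lay highest. At the estimated depths these levels stand for about 16 to 182 reads. The gene lies at chr7:143458339-143461050 (minus strand).

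Cdkn1b, which encodes p27, ran nearly opposite to both. Its level was 20.6 FPKM in 10% FBS, 16.4 in 2% HS, 18.4 in 2% HS + exosome, 14.8 in 0.2% FBS, and 20.5 and 24.8 in 0.2% FBS + exosome. The 0.2% FBS library was the lowest, but no neighbouring conditions in the order were further apart than the replicates (0.27 on the log2 scale). The gene lies at chr6:134920401-134925513 (plus strand).

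Cdkn2c, the INK4 member, had the flattest profile among the inhibitors. It gave 11.2 FPKM in 10% FBS, 10.2 in 2% HS, 11.8 in 2% HS + exosome, 8.66 in 0.2% FBS, and 8.38 and 9.82 in 0.2% FBS + exosome. The 0.2% FBS library fell between the replicates with exosomes, and no neighbouring conditions differed beyond the replicate difference of 0.21. The gene lies at chr4:109660876-109667189 (minus strand).

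Ccnd3 was the main D cyclin message in every library, with 88.5% to 94.3% of the summed FPKM of the 3 genes. Its level was 125 FPKM in 10% FBS, 150.5 in 2% HS, 148 in 2% HS + exosome, 178 in 0.2% FBS, and 120.1 and 122 in 0.2% FBS + exosome. The 0.2% FBS library was the highest, and the growing library and both exosome libraries of 0.2% FBS were the lowest. The replicates differed by only 0.02 on the log2 scale, less than the gaps between all neighbouring conditions, and a single pair gives little knowledge of that spread. The gene lies at chr17:47505051-47599691 (plus strand).

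Ccnd1, the D cyclin that responds to mitogens, ran the other way. It gave 11.6 FPKM in 10% FBS, 8.61 in 2% HS, 6.57 in 2% HS + exosome, 6.96 in 0.2% FBS, and 9.24 and 11.2 in 0.2% FBS + exosome. The growing library was the highest, and both exosome libraries of 0.2% FBS lay above the other differentiating libraries. The gene lies at chr7:144929931-144939925 (minus strand).

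Ccnd2 was the lowest D cyclin in 5 of 6 libraries and stood out in a single one. Its level was 3.45 FPKM in 10% FBS, 4.13 in 2% HS, 7.66 in 2% HS + exosome, 3.74 in 0.2% FBS, and 4.68 and 4.60 in 0.2% FBS + exosome. The library of 2% HS + exosome, which has no replicate, was above all others, and it is also the one library with more Ccnd2 than Ccnd1. The gene lies at chr6:127125162-127152193 (minus strand).

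Rb1 encodes the pocket protein that D cyclin kinases phosphorylate. It stood at 35.8 FPKM in 10% FBS, 33.2 in 2% HS, 33.3 in 2% HS + exosome, 36.6 in 0.2% FBS, and 23.0 and 22.9 in 0.2% FBS + exosome. The first 4 of these libraries lay close together, and both exosome libraries of 0.2% FBS were below them, with a gap of 0.51 on the log2 scale to the nearest. The replicates differed by 0.009. Rb1 lies at chr14:73183673-73325822 (minus strand).

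**Figure D1:**
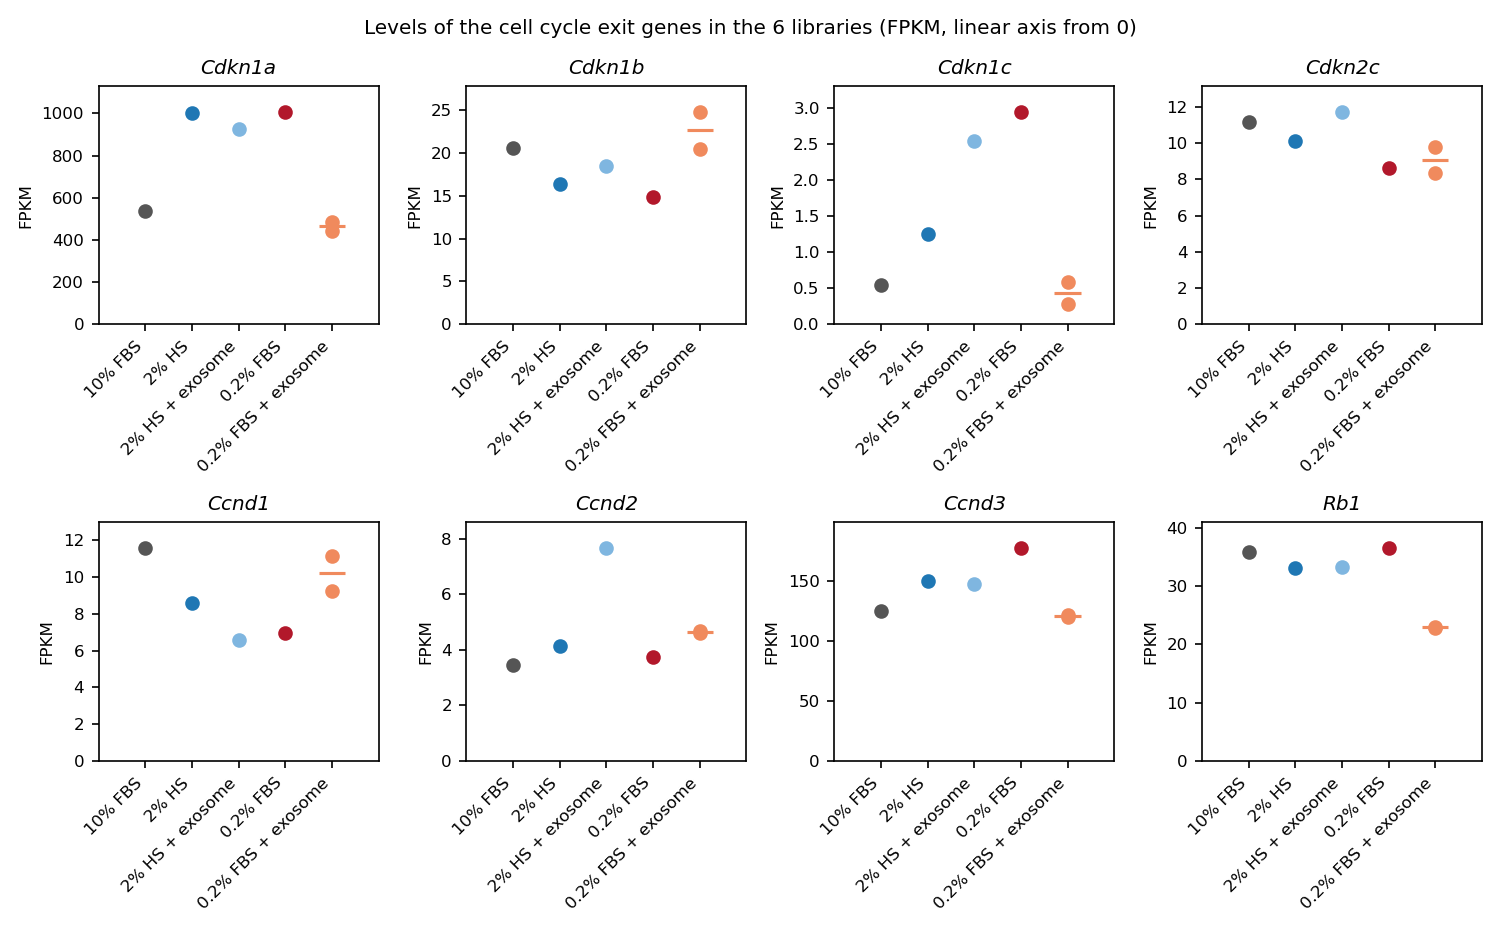
FPKM of each gene in the 6 libraries, 1 panel per gene with its own linear axis from 0. Points are libraries, and the short line marks the mean of the replicates of 0.2% FBS + exosome. Cdkn1a reaches 1009 FPKM in 0.2% FBS and lies at 486 and 444 FPKM with exosomes there, while Rb1 goes from 36.6 to 23.0 and 22.9 FPKM.

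Because the D cyclins and the Cip/Kip inhibitors are families of related sequence, the longest runs of identical coding bases between their members were searched, to see whether a 75-base read could fit a pair of them. The coding sequences of Ccnd1, Ccnd2 and Ccnd3 hold 295, 289 and 292 codons. Windows of 30 coding bases around the longest shared runs, taken from GENCODE transcripts on mm10, are given 5′ to 3′ with the shared run in capitals. Ccnd1 and Ccnd2 share 20 bases, Ccnd1 and Ccnd3 17, Ccnd2 and Ccnd3 14 at their start codons, and Cdkn1b and Cdkn1c 11.
Ccnd1, coding bases 128 to 157: cttacTTCAAGTGCGTGCAGAAGGAgattg
Ccnd2, coding bases 122 to 151: cctatTTCAAGTGCGTGCAGAAGGAcatcc
Ccnd1, coding bases 730 to 759: ctccgtGCCTGCCAGGAACAGATtgaagcc
Ccnd3, coding bases 718 to 747: ctgcgaGCCTGCCAGGAACAGATcgaagct
Ccnd2, coding bases 1 to 30: ATGGAGCTGCTGTGctgcgaggtggacccg
Ccnd3, coding bases 1 to 30: ATGGAGCTGCTGTGttgcgagggcacccgg
Cdkn1b, coding bases 541 to 570: gctggcactGTGGAGCAGACgcccaagaag
Cdkn1c, coding bases 1006 to 1035: gtgggcgcgGTGGAGCAGACcccgcgcaaa

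None of these runs was as long as a read, so a whole read from these coding sequences matches 1 family member exactly. Genes on the opposite strand are a different matter, since the strand setting of the FPKM calculation is not given in the sources used here, and reads of such a partner could then be counted with a member. Of the 75-base stretches of each gene, 22.1% for Cdkn1c were also found in antisense orientation in Gm44732, 20.6% for Ccnd1 in LTO1 (listed as Oraov1), and 10.4% for Rb1 in Lpar6 and Rcbtb2 together. For Cdkn1a, 7.05% were shared with many other transcripts in either orientation, and for Ccnd2, 5.52% were antisense to 9330179D12Rik and Gm43126. For Ccnd3, 2.96% were antisense to Bysl, and Ccnd3 also shares stretches with a pseudogene, Ccnd3-ps. Cdkn1b and Cdkn2c shared none. The level of Bysl followed that of Ccnd3 at between 0.179 and 0.194 of it in every library. Oraov1 lay at between 0.467 and 1.04 of the level of Ccnd1, Rcbtb2 at between 0.178 and 0.419 of that of Rb1, and Lpar6 at between 0.0646 and 0.191 of it. The part of these shared stretches and partners in the values was not tested.

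In cells moved to less serum, the inhibitors differed from growing cells in different directions. In 0.2% FBS against 10% FBS, Cdkn1a was higher by 0.91 and Cdkn1c by 1.36 on the log2 scale, while Cdkn1b was lower by a change of −0.44 and Cdkn2c by −0.34. Among the D cyclins, Ccnd3 was higher by 0.50, Ccnd1 lower with −0.66, and Ccnd2 at 0.09. Rb1 was at 0.03. In 2% HS against 10% FBS the changes were 0.90 for Cdkn1a, 0.54 for Cdkn1c, −0.31 for Cdkn1b and −0.13 for Cdkn2c. They were 0.26 for Ccnd3, −0.39 for Ccnd1, 0.21 for Ccnd2 and −0.11 for Rb1. Both comparisons use the same 10% FBS library and have 1 library on each side, so they have no replicate check. They are described by their size, and limma was not run on them. The amount of serum cannot be told apart from any difference in time of harvest, or in 2% HS from the serum species.

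The threshold of the study, a log2 change above 1 or below −1, was applied here to log2(FPKM + 1), where the added 1 shrinks the change of weakly expressed genes. By it Cdkn1c was the only member past it in 0.2% FBS, where 1.79% of the 10731 genes were past it upwards and 0.69% downwards. In 2% HS no member passed, although Cdkn1c was at 2.31 times its level in 10% FBS on plain FPKM, against 1.79% of genes upwards and 0.522% downwards. The median change of the 8 members was 0.06 in 0.2% FBS and 0.05 in 2% HS, beside −0.09 and −0.08 for all genes tested. With 0.1 in place of 1 added to FPKM, Cdkn1c also passed in 2% HS, at 1.07, and stood at 2.25 in 0.2% FBS. With values below 1 FPKM raised to 1 in place of an added 1, its change in 2% HS was 0.32, from 0.54.

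Adding exosomes in 0.2% FBS was accompanied by lower Cdkn1a, Cdkn1c, Ccnd3 and Rb1. Cdkn1a was at 0.461 of its level without exosomes and Cdkn1c at 0.146, while Ccnd3 was at 0.681 and Rb1 at 0.628. Cdkn1b was at 1.53 and Ccnd1 at 1.47 of the level without exosomes. The change of Cdkn1a was −1.12 ± 0.09 (SD, n = 2) on the log2 scale, with −1.05 in replicate 1 and −1.18 in replicate 2. That of Cdkn1c was −1.47 ± 0.22 (SD, n = 2), with −1.32 and −1.63. Rb1 changed by −0.64 and −0.65 (SD 0.006, n = 2), and Ccnd3 by −0.56 and −0.54 (SD 0.01, n = 2). These 4 genes were thus lower in each replicate than in the single control library that every value here rests on. Among all genes tested, 27.5% were lower in both replicates and 55.2% were higher in both.

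The other 4 members were not lower. Cdkn1b changed by 0.57 ± 0.19 (SD, n = 2), with 0.44 and 0.70, and Ccnd1 by 0.49 ± 0.18 (SD, n = 2), with 0.36 and 0.61. Ccnd2 changed by 0.25 ± 0.02 (SD, n = 2). Cdkn2c gave 0.06 ± 0.15 (SD, n = 2), with −0.04 in replicate 1 and 0.16 in replicate 2, and its mean turns to −0.04 when the libraries are scaled to a common 75th percentile. Sample titles give the 0.2% FBS library and replicate 1 the same number and replicate 2 another, so the values of replicate 1 are also those within that number. No number occurs in both media, so a batch that such a number might stand for cannot be told apart from the medium.

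Cdkn1a and Cdkn1c were the 2 members past the threshold downwards, where 2.25% of all genes tested were past it, and no member was past it upwards, where 1.8% were. Without replicate 1 and without replicate 2 the same 2 members passed. Genes past the threshold upwards were 44.5% of those past it, and 31.8% when the libraries are scaled to a common 75th percentile. They were 52.3% with a pseudocount of 0.1, 52.55% with values raised to 1 FPKM and 50.6% without replicate 1, so the majority direction among these genes depends on the setting. With 0.1 in place of 1 added to FPKM, the change of Cdkn1c was −2.59. The median change of the members was −0.25 beside 0.14 for all genes, with 5 members below the median gene and 3 above it. The median of the absolute changes was 0.56 for the members and 0.27 for all genes. Most genes, 65.1%, were higher with exosomes, and 0.14 is the change of the median gene in the FPKM as deposited. That reference depends on the scaling, since the median is 0.04 when the libraries are scaled to a common 75th percentile.

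In limma, fitted to all 6 libraries with 1 mean per condition, Cdkn1c (adjusted p = 0.00863, SE 0.21) and Rb1 (adjusted p = 0.0360, SE 0.16) fell with exosomes in 0.2% FBS. They were 2 of 8 members, where 4.32% of the genes tested were called lower and 8.2% higher. Cdkn1a had the second largest change but a wider error (SE 0.35, 95% interval from −1.91 to −0.32, adjusted p = 0.0686). The adjusted p was 0.0663 for Cdkn1b, 0.0980 for Ccnd1, 0.114 for Ccnd3, 0.344 for Ccnd2 and 0.845 for Cdkn2c. At an unadjusted p under 0.05, 6 members would pass, where 31.5% of all genes tested did.

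These calls depend on the fit, which has 1 residual degree of freedom from the replicates and assumes that the single libraries vary as they do. To it limma adds 7.28 prior degrees of freedom drawn from all genes tested, so the SE of a gene follows mostly genes of similar level. For Rb1 the SD of the replicates was 0.006 and the SE 0.16, and for Cdkn1a they were 0.09 and 0.35. With every entry above 0 in some library kept, limma called no gene (3121 at an unadjusted p under 0.05). Cdkn1c still stood at −1.47 and Rb1 at −0.65 in that limma fit, both with an adjusted p of 0.243. An alternative fit left out the 10% FBS library and also gave both media 1 common exosome effect. It called no gene either (709 at an unadjusted p under 0.05), with −0.56 for Cdkn1c (adjusted p = 0.725) and −0.37 for Rb1 (adjusted p = 0.705). These adjusted p come from a range of 0.00283 to 0.725 for Cdkn1c and 0.0120 to 0.705 for Rb1 over the settings of limma without the title number as a block. With libraries scaled to the same 75th percentile, Cdkn1a (adjusted p = 0.0297 in limma) and Ccnd3 (adjusted p = 0.0447 in limma) were called lower as well, and the share of higher genes among all calls went from 65.5% to 51.6%. In these bulk libraries, fewer cells that express a gene and less RNA per cell cannot be told apart.

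With exosomes in 2% HS, Ccnd2 and Cdkn1c were higher and Ccnd1 was lower, while Rb1 and Ccnd3 stayed near 0. Cdkn1a changed by −0.11, Cdkn1b by 0.16, Cdkn1c by 0.65 and Cdkn2c by 0.19 on the log2 scale. Ccnd1 changed by −0.34, Ccnd2 by 0.76, Ccnd3 by −0.02 and Rb1 by 0.004, and Ccnd3 changes sign to 0.01 when the libraries are scaled. No member passed the threshold on log2(FPKM + 1), where 0.298% of genes passed downwards and 0.354% upwards. Cdkn1c was at 2.03 times its level without exosomes on plain FPKM and passed, at 1.02, when values below 1 FPKM were raised to 1. The comparison has 1 library on each side and was not tested by itself, and Ccnd2 and Cdkn1c had the largest changes of the 8, both upwards. The median change was 0.08 for the members and −0.04 for all genes.

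The difference of the exosome effects between the media was tested in the same limma fit. Cdkn1c differed by −2.13 (SE 0.32, adjusted p = 0.0288), since its change was −1.32 and −1.63 in 0.2% FBS and 0.65 in 2% HS. With 0.1 in place of 1 added to FPKM the difference was −3.55. The adjusted p of Cdkn1c ranged from 0.00872 to 0.359 over the settings of limma. The call was lost, at 0.359, when all entries above 0 in some library were kept. Cdkn1c was the one member called, while 0.867% of genes were called with a lower effect in 0.2% FBS and 0.298% with a higher one. Ccnd1, at 0.83 (95% interval from 0.22 to 1.44, adjusted p = 0.153), and Rb1, at −0.65 (95% interval from −1.21 to −0.09, adjusted p = 0.201), were not called in limma. The difference was −1.01 for Cdkn1a, with a 95% interval from −2.22 to 0.21 and an adjusted p of 0.337. For Cdkn1b, Cdkn2c, Ccnd2 and Ccnd3 the adjusted p lay between 0.314 and 0.823 in limma. A difference between media was thus called for Cdkn1c alone of the 8, within the limits of that fit. It rests on single libraries of 0.2% FBS, 2% HS and 2% HS + exosome. That the other members were not called does not show that their effects were alike in both media.

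**Figure D2:**
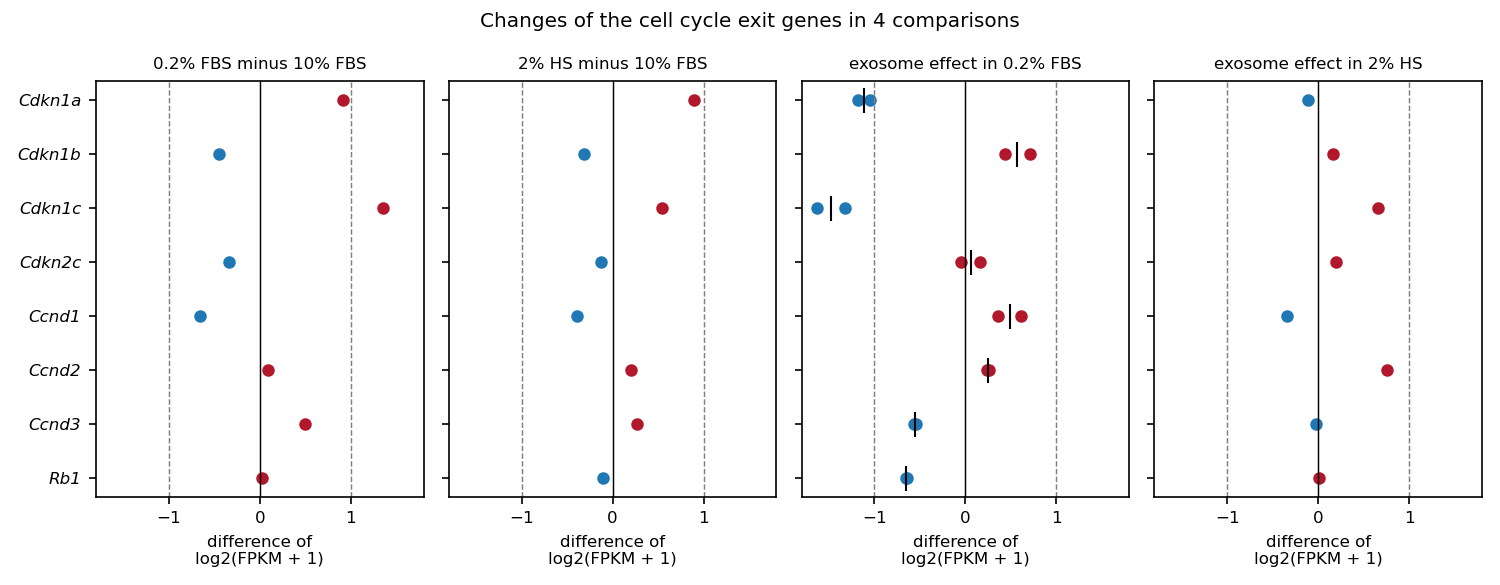
Difference of log2(FPKM + 1) for each gene in 4 comparisons, with dashed lines at 1 and −1. Points are single libraries against the control library, red where the mean change is above 0 and blue where it is below, and bars mark the mean of both replicates in 0.2% FBS. With exosomes in 0.2% FBS, Cdkn1a lies at −1.05 and −1.18 and Cdkn1c at −1.32 and −1.63, while in 2% HS they lie at −0.11 and 0.65.

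Set against growing cells, the cells of 0.2% FBS + exosome were close for most members, but no closer than for genes at large. The median of the absolute changes was 0.19 for the members and 0.16 for all genes tested. The median change was −0.14 for the members and 0.04 for all genes, with 6 members below the median gene and 2 above it. The changes against 10% FBS were −0.21 for Cdkn1a, 0.13 for Cdkn1b, −0.11 for Cdkn1c and −0.28 for Cdkn2c. They were −0.17 for Ccnd1, 0.34 for Ccnd2 and −0.05 for Ccnd3. Without replicate 2, Cdkn1b turns to −0.006 and Cdkn1c to 0.04. Rb1 was the exception, with a change of −0.62 that left it below the growing cells as well, although limma did not call it (adjusted p = 0.217). limma called no member here, and 1 member of 8, Rb1, had an unadjusted p under 0.05, as did 11.5% of all genes tested. It called 0.0652% of genes in either direction. No member was past the threshold, where 0.0932% of genes were lower and 0.513% higher.

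Ratios between members show the composition within a library without the scaling between libraries. Cdkn1a over Cdkn1b was 26.1 in 10% FBS, 61.1 in 2% HS, 50.3 in 2% HS + exosome, 67.9 in 0.2% FBS, and 23.7 and 17.9 in 0.2% FBS + exosome. Ccnd3 over Ccnd1 was 10.8, 17.5, 22.5, 25.5, 13.0 and 10.9 in the same order. In both ratios the growing library and the libraries of 0.2% FBS + exosome were low and the other 3 libraries high. Each ratio pairs members that already ran opposite in these libraries (r = −0.91 for Cdkn1a and Cdkn1b, r = −0.80 for Ccnd1 and Ccnd3). The split is thus no added result, and the share of gene pairs with such a split was not computed.

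The summed FPKM of the Cip/Kip genes over that of the D cyclins, 2 sums that Cdkn1a and Ccnd3 dominate, was 3.97, 6.24, 5.85, 5.45, 3.78 and 3.41 in that order. Cdkn1a made up 94.7% to 98.3% of the Cip/Kip sum. Messenger ratios say nothing of the amounts of protein, which several of these genes control by degradation. No test was run on the ratios.

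**Figure D3:**
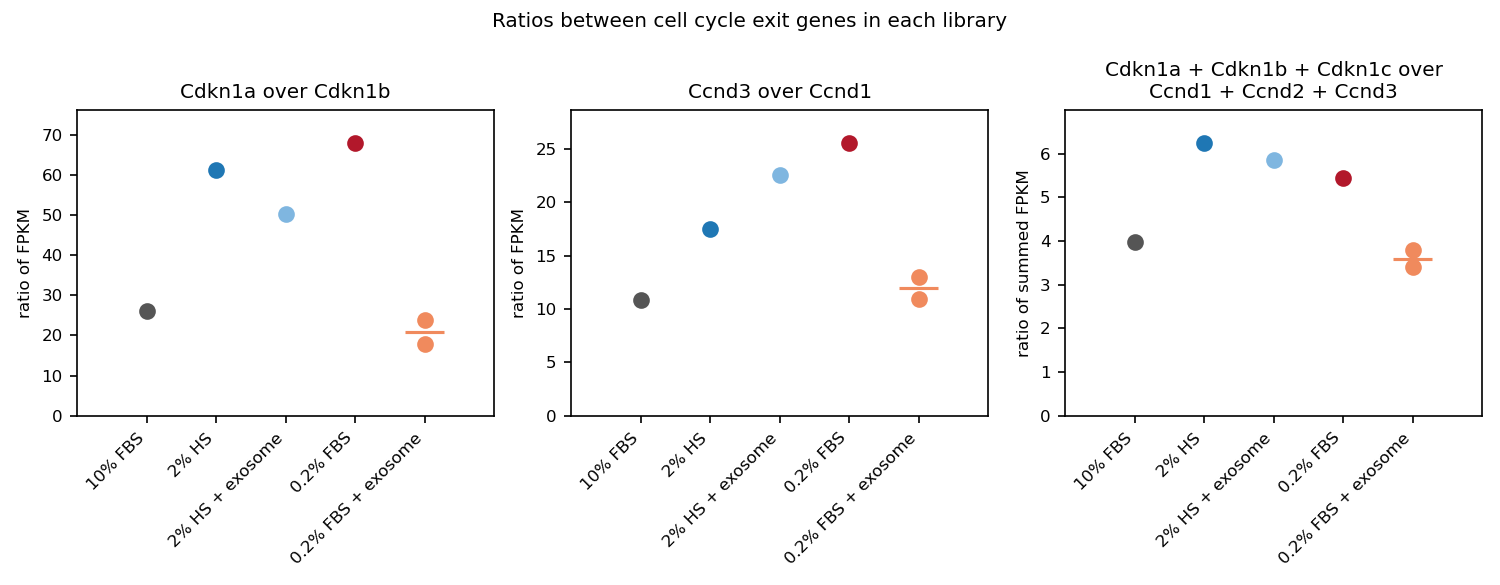
Ratios of FPKM within each library, on linear axes from 0. Points are libraries, and the short line is the mean of both replicates of 0.2% FBS + exosome. Cdkn1a over Cdkn1b is 67.9 in 0.2% FBS and 23.7 and 17.9 with exosomes there, beside 26.1 in growing cells.

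The other genes of the pathway were taken from lists written for this report. Among the G1 kinases with their E and A cyclins, none of 8 tested was called by limma with exosomes in 0.2% FBS (2 at an unadjusted p under 0.05), and the median change was 0.10. The D cyclin partner Cdk4 had the largest change, 0.83, and missed the threshold of the test (adjusted p = 0.0614 in limma). Its level was 207 FPKM in 10% FBS, 135 in 2% HS, 137 in 2% HS + exosome, 126 in 0.2% FBS, and 198 and 256 in 0.2% FBS + exosome. The growing library and both exosome libraries of 0.2% FBS were thus high and the others low. Ccna2, at −0.19, had the lowest value of this list.

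None of 11 pocket proteins, E2F and DP factors was called by limma (6 at an unadjusted p under 0.05), with a median of 0.06. E2f3 (0.57) and E2f1 (0.55) lay highest, and E2f8 (−0.61) and E2f2 (−0.50) lay lowest. None of 5 genes of the MuvB core, which represses cell cycle genes in resting cells together with pocket proteins, was called by limma (1 at an unadjusted p under 0.05), with a median of 0.21. Among 9 parts of the ubiquitin ligases that degrade inhibitors and D cyclins, the median was 0.22. limma called 1 of the 9, higher, beside 8.2% of all genes tested. It was Cks1b, the cofactor of Skp2 in the degradation of p27, which rose by 0.59 (adjusted p = 0.0492 in limma).

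The other CDK inhibitors Cdkn2a and Cdkn2b were listed at 0 in all 6 libraries, and of the 2 that could be tested limma called 0, and 0 at an unadjusted p under 0.05, with Cdkn2d at 0.10 and Cdkn3 at −0.42. The medians of these lists are small and some move between the replicates, from 0.18 in replicate 1 to −0.003 in replicate 2 for the pocket proteins, E2F and DP factors and from 0.13 to 0.33 for the ubiquitin ligase parts. For the MuvB core they were 0.28 and 0.15. On none of these 5 lists was a gene past the fold threshold with exosomes in 0.2% FBS.

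Replication and mitosis genes under E2F and DREAM had a median change of −0.01 with exosomes in 0.2% FBS (−0.03 in replicate 1 and 0.04 in replicate 2). limma called 1 of 23, lower, beside 4.32% of all genes tested. This was Rrm2, a subunit of ribonucleotide reductase, which fell by 1.16 (adjusted p = 0.00900 in limma). Cdt1, a licensing factor for replication, lay highest at 0.56. In 2% HS, 22 of 23 were lower with exosomes, where 58.7% of all genes tested were, with a median of −0.40 beside −0.04 for all genes, from 1 library on each side. The summed level of the list was 322 FPKM in 10% FBS, 350 in 2% HS, 268 in 2% HS + exosome, 270 in 0.2% FBS, and 231 and 248 in 0.2% FBS + exosome. The lower sums with exosomes in 0.2% FBS rest largely on Rrm2. This gene stood at 50.5 FPKM without exosomes and at 20.6 and 23.6 with them. Without Rrm2, a sum chosen after the values were seen, the list gave 219 FPKM in 0.2% FBS and 211 and 224 with exosomes. Replicate 1 was thus still below the control library, and replicate 2 was above it.

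Cdkn1a is also a target of p53, and 13 other p53 targets were tested. Their median change with exosomes in 0.2% FBS was 0.04, with 1 called lower and 1 higher, beside 4.32% and 8.2% of all genes tested. Eda2r, a receptor, changed by −0.91 (adjusted p = 0.0350 in limma) and Trp53inp1, a p53 cofactor, by 0.89 (adjusted p = 0.0168 in limma). None was past the fold threshold with exosomes added to 0.2% FBS. In 2% HS with exosomes, Gdf15 (1.85) and Sesn2 (1.27) were past that threshold upwards and Ccng1 (−1.20) downwards. Of all genes tested, 0.354% were past it upwards and 0.298% downwards there, and Cdkn1a changed by −0.11.

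Targets of mitogen signalling, which acts on Ccnd1, had a median change of 0.45 in 0.2% FBS with exosomes, and 10 of 11 were higher by the mean of the replicates, beside 65.1% of all genes tested. In both replicates 8 of 11 were higher, beside 55.2% of all genes. limma called 2 of the 11 higher, beside 8.2% of all genes, one of which was Spry2, an inhibitor of growth factor signalling (0.80, adjusted p = 0.0281). Fos stood at 3.04 FPKM in 0.2% FBS and at 8.03 and 100.2 in the replicates with exosomes. Other immediate-early genes were also higher in replicate 2 than in replicate 1, Ier2 with 61.3 against 19.3 FPKM, Egr1 with 85.9 against 38.9 and Jun with 85.6 against 54.9. Egr1 and Ier2 were below the control library in replicate 1, at −0.19 and −0.17 on the log2 scale, and above it in replicate 2, at 0.93 and 1.45. Replicate 2 thus stands apart for these genes, and the median of the list was 0.18 in replicate 1 and 0.66 in replicate 2. Ccnd1 in replicate 2 (11.2 FPKM) was also above that of replicate 1 (9.24 FPKM). The part of this difference in the Ccnd1 values was not tested.

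Of 11 imprinted genes chosen for the network that includes Cdkn1c, 9 were found and 5 could be tested. With exosomes in 0.2% FBS, limma called 1 of these, lower, beside 4.32% of all genes tested. This was Igf2, a growth factor expressed from the paternal allele in the same imprinted region of chromosome 7 as Cdkn1c. It gave 67.6 FPKM in 10% FBS, 116 in 2% HS, 184 in 2% HS + exosome, 224 in 0.2% FBS, and 73.1 and 86.9 in 0.2% FBS + exosome. The 0.2% FBS library was the highest and the growing library the lowest, and with exosomes in 0.2% FBS it fell by 1.48 (adjusted p = 0.00862 in limma). Mest, at 0.52, lay highest on this list.

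The sum of the myogenic regulators and differentiation markers, most of it from the structural genes Acta1, Myh3 and Tnnt3, was high and low in the same libraries as Cdkn1a. It was 5174 FPKM in 10% FBS, 10323 in 2% HS, 9673 in 2% HS + exosome, 11267 in 0.2% FBS, and 5116 and 3852 in 0.2% FBS + exosome. With exosomes in 0.2% FBS, 10 of 11 genes tested were lower in both replicates (median −0.92), as were 27.5% of all genes. limma called 2 of the 11 lower and 1 higher, beside 4.32% and 8.2% of all genes, and 5 were past the fold threshold downwards, beside 2.25%. Tnnt3, a fast troponin, had the largest fall (1.81, adjusted p = 0.0289 in limma), and Myf5, a regulator of undifferentiated myoblasts, rose by 0.96 (adjusted p = 0.0196 in limma). The regulators did not all follow that order. Myf5 was highest where Cdkn1a was low, at 12.2 FPKM in 10% FBS, 6.50 in 2% HS, 4.22 in 2% HS + exosome, 5.39 in 0.2% FBS, and 10.1 and 12.9 in 0.2% FBS + exosome. Mef2a was higher in 10% FBS (103 FPKM) than in 2% HS (85.4 FPKM), and Myod1 in replicate 2 (100.8 FPKM) lay above both 2% HS libraries (97.2 and 91.0 FPKM). Whether the share of differentiated cells accounts for the levels of the 8 members was not tested.

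The calls made by limma in these lists are those of the fit with 1 mean per condition on the filtered genes. With all entries above 0 in some library kept, or with a common exosome effect fitted to the 5 differentiating libraries, no gene was called.

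**Figure D4:**
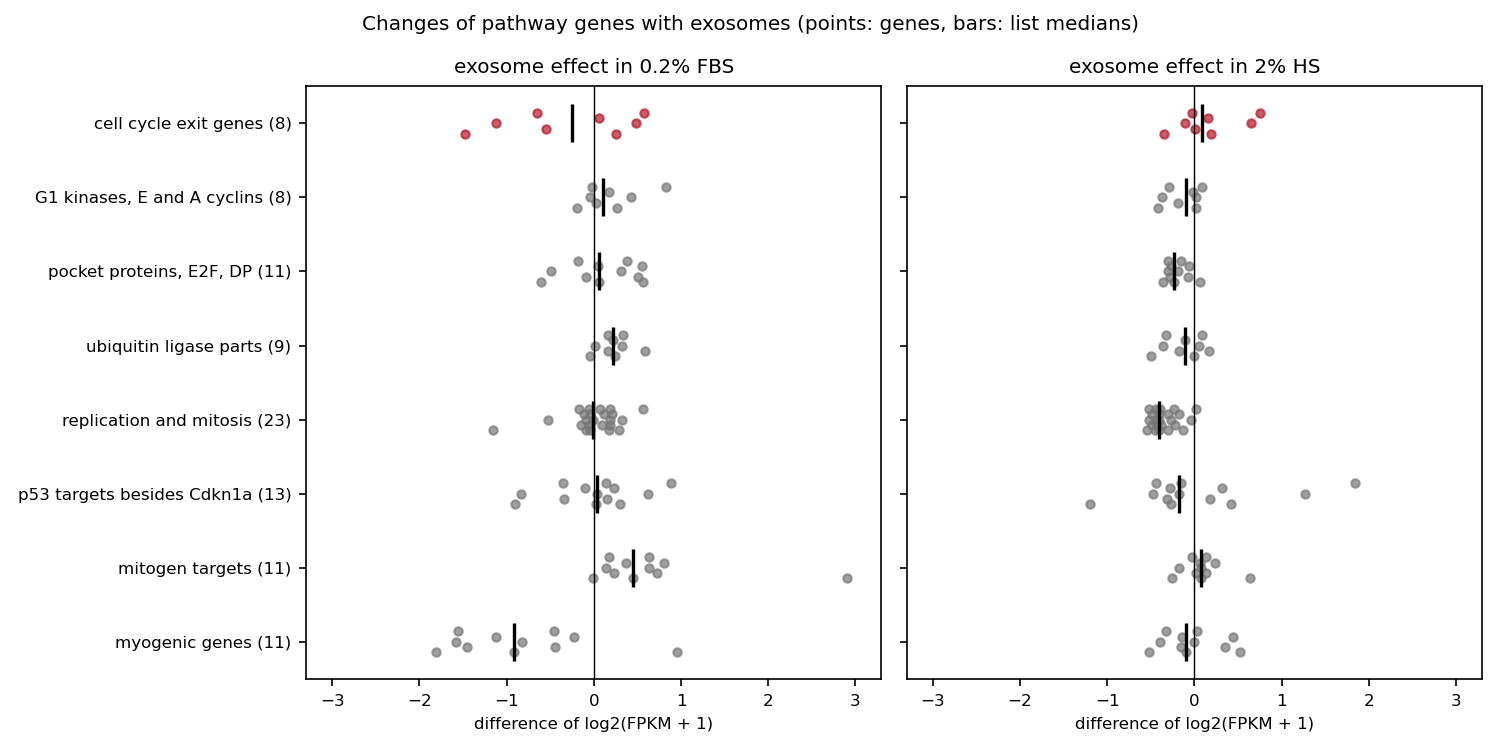
Difference of log2(FPKM + 1) with exosomes for the 8 genes (red) and 7 lists of related genes (grey, genes tested in parentheses), in 0.2% FBS on the left and in 2% HS on the right. Bars mark medians. The myogenic genes have a median of −0.92 in 0.2% FBS and replication and mitosis genes −0.01, while in 2% HS the latter have −0.40.

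For the 2 members whose log2 levels spanned at least 1, the genes of most similar profile were taken from 1296 genes with such a span, by Pearson's r over the 6 libraries, as a description. They were Rassf7 (r = 0.997), Myl1 (r = 0.996) and Ldb3 (r = 0.996) for Cdkn1a. Myl1, a myosin light chain, gave 1418 FPKM in 10% FBS, 3697 in 2% HS, 3587 in 2% HS + exosome, 3593 in 0.2% FBS, and 1309 and 1053 in 0.2% FBS + exosome. It was thus high in the libraries with high Cdkn1a and low in the others. For Cdkn1c they were Afap1l1 (r = 0.984), Myh8 (r = 0.980) and Rap1gap2 (r = 0.977). Myh8, the perinatal myosin heavy chain, gave 9.88, 13.2, 28.8, 31.8, 8.64 and 4.50 FPKM in the same order. The 6 points fall into high and low libraries, which any gene with that split follows.

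MyoD and myogenin bind E-boxes (CANNTG), so the promoters of 250 bases before to 50 after the start site were searched for them on both strands. RefSeq promoters on GRCm38.p6 were matched for 4 members, Cdkn1a, Cdkn1b, Cdkn2c and Ccnd3. CANNTG, which includes both forms named next, is held by 72.3% of 32851 promoters, CAGCTG by 16.3% and CACCTG by 20.2%. Of the 4, only Cdkn1a held CAGCTG or CACCTG, at 1 site in each of its 2 promoters. They are shown with 30 bases of context on the plus strand, with the E-box in capitals, which in the second reads CACCTG on the other strand.
Cdkn1a, chr17:29090999-29091028: tgatgatacccaactacCAGCTGtggggtg
Cdkn1a, chr17:29093570-29093599: aagagaatagccCAGGTGtgggggagggga

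Cdkn1a also held a CANNTG of another form at −4 from the start site, in its promoter at chr17:29093519-29093818. Cdkn2c held 1 CANNTG of another form, and Cdkn1b and Ccnd3 held none in these windows. The E2F letters TTTGGCGC (0.514% of promoters) and TTTCCCGC (1.07%) were in none of the 4. A match of letters is no evidence of binding, and its absence from a window says nothing of the rest of the gene.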

How the data were processed

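C2C12 RNA was sequenced as stranded 75 bp single-end mRNA libraries. The authors trimmed the reads with cutadapt 1.9.1, mapped them to mm10 with TopHat2 2.1.0 (submitters' processing notes) and deposited FPKM values from Cufflinks, 1 column per library. The annotation and strand setting are not given in the sources used here. Columns were matched to samples by title, and 5 names occur more than once in the table.

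Values were compared as log2(FPKM + 1) over the 10731 genes whose mean reached 1 FPKM. Changes past 1 or −1 were called, as in the study, but on this scale. limma 3.58.1 (R 4.3.3; trend, eBayes) used 1 mean per condition and Benjamini-Hochberg adjustment over all genes tested, with calls at 0.05. Alternatives changed the pseudocount, filter, scaling, replicates and fit. Scripts were tested on simulated data. Depth was estimated from low FPKM values of 2442 single-transcript genes, of which 74.1% to 77.0% lay within 0.1 of a whole read (20% if spread evenly), with a fragment length of 200 assumed.

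The 8 members and 11 lists were chosen with earlier results of these data known. Genes named are the members, the 1 or 2 genes at each end of a list and the 3 genes most similar to a member. Beyond this rule, Myod1, Des, Cd68, Myog, Cdkn2a, Cdkn2b, Mef2a, Acta1, Myh3, Ier2, Egr1, Jun and the opposite-strand partners were named after their values were seen. Sequences and positions come from GENCODE vM21 (mm10) and RefSeq (GRCm38.p6).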

Additional observations from a re-analysis of the deposited data

Results flagged for a closer look

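For 3 members, the exosome effect differed in direction between the media. The share of all genes tested that did so was not computed. Of all genes, 65.1% were higher with exosomes in 0.2% FBS and 58.7% were lower with them in 2% HS, so opposite directions are not particular to these members. Cdkn1c changed by −1.32 and −1.63 in the replicates of 0.2% FBS and by 0.65 in 2% HS, a difference of −2.13 that passed the test of the difference (adjusted p = 0.0288 in limma). Ccnd1 changed by 0.36 and 0.61 in 0.2% FBS and by −0.34 in 2% HS. Its difference of 0.83 did not pass the test (adjusted p = 0.153 in limma). Rb1 changed by −0.64 and −0.65 in 0.2% FBS and by 0.004 in 2% HS, a value so near 0 that its sign carries little. Its difference of −0.65 did not pass the test either (adjusted p = 0.201 in limma). Over the other settings of the fit, the adjusted p of the difference lay between 0.00872 and 0.359 for Cdkn1c, between 0.140 and 0.392 for Ccnd1, and between 0.0950 and 0.359 for Rb1.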

How the results depend on the processing

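Of 40 changes of single members, 36 kept their direction in every setting. Cdkn2c with exosomes in 0.2% FBS turned from 0.06 to −0.04 (−0.037 in limma) under scaling to the 75th percentile and to −0.04 without replicate 2, Ccnd3 with exosomes in 2% HS turned under scaling, and Cdkn1b and Cdkn1c in 0.2% FBS + exosome against 10% FBS turned without replicate 2.

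Counts of genes past the fold threshold rose with a pseudocount of 0.1 or with values raised to 1 FPKM, as more low genes pass. They went from 434 to 675 and 666 with exosomes in 0.2% FBS, from 70 to 126 and 123 with exosomes in 2% HS, from 248 to 402 and 375 for 2% HS against 10% FBS, from 266 to 455 and 440 for 0.2% FBS against 10% FBS, and from 65 to 144 and 142 for 0.2% FBS + exosome against 10% FBS. Without replicate 1 or 2, the first count lay between 338 and 617 and the last between 92 and 109, where each count with both replicates is that of their mean. In the last comparison the share of higher genes went from 84.6% to 72.4% under scaling. Members past the threshold became 1 in 2% HS against 10% FBS (pseudocount 0.1) and 1 with exosomes in 2% HS (values raised to 1). With a mean of at least 5 FPKM, which leaves out Cdkn1c and Ccnd2, they became 1 with exosomes in 0.2% FBS and 0 in 0.2% FBS against 10% FBS.

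limma called 1344 genes with exosomes in 0.2% FBS, 7 for 0.2% FBS + exosome against 10% FBS and 125 for the difference between media. Scaling gave 38 for the second and 377 for the third, and 4 members in place of 2 for the first. With all entries above 0 in some library kept, limma gave 0 for all 3 (3121, 1599 and 2276 at an unadjusted p under 0.05). With a common exosome effect fitted to the 5 differentiating libraries, without 10% FBS, it gave 0 for the first (709 unadjusted). In these fits the members called were 0. With a mean of at least 5 FPKM, 1 member was called in the first and 0 in the third. The cause of these differences was not tested. Leaving out a replicate leaves limma no residual degrees of freedom and was not run there. The titles give 2 pairs of libraries with and without exosomes the same number, 1 pair per medium, and do not say what it marks. A fit with this number as replicate block and a common exosome effect, chosen after seeing the data, also called 0 genes (296 unadjusted) and 0 members. In it Cdkn1c was at −0.33 and Rb1 at −0.32, and replicate 2, the only library with its number, adds nothing to the effect. Precision is limited by the design, in which 1 pair of replicates stands for all conditions, and by depth, above all for Cdkn1c with about 16 to 182 estimated reads. These limits were not compared.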
